A study of Homo sapiens with 8 samples.

Results

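The genes described here encode aminoacyl-tRNA synthetases and the proteins that scaffold them, measured in prostatic epithelial cells with ESRP1 and ESRP2 knocked down and in control cells. The list holds 19 genes of cytosolic enzymes, 16 of mitochondrial enzymes and 3 of scaffold proteins. A gene counted as measured when a row of the expression table was annotated to its symbol alone. That held for 31 of the 38 genes, among 14271 genes measured in this way in the series: 18 cytosolic, 12 mitochondrial and 1 scaffold gene, each with 1 row. FARSB, EARS2, SARS2, VARS2 and YARS2 appear only on rows shared with another gene, AIMP2 and EEF1E1 are named on no row, and these 7 are not analysed here.

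Aminoacyl-tRNA synthetases join each amino acid to its transfer RNA (tRNA), the step that sets the reading of the genetic code. Cytosol and mitochondria translate separately, and most amino acids have a nuclear gene for each compartment; KARS1 and GARS1 supply both compartments from a single gene. Several cytosolic enzymes sit in a multisynthetase complex held together by AIMP1, AIMP2 and EEF1E1, the last also known as AIMP3. When amino acids run short, uncharged tRNA activates the kinase GCN2, and the transcription factor ATF4 then induces amino acid transporters, biosynthetic enzymes and many cytosolic synthetases. None of these statements is a result of the present data.

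PNT2 is an immortalized line of human prostatic epithelium. Of 8 samples, 4 received small interfering RNA (siRNA) against both ESRP1 and ESRP2 (siESRP), and 4 received siRNA against green fluorescent protein (siGFP) as the control. ESRP1 and ESRP2 are splicing regulators of epithelial cells, and the series asked which splicing events they control. The values here are gene-level intensities from Affymetrix exon arrays, with 1 array per sample, and do not measure splicing. The labels do not say whether the samples of a group came from cultures grown apart. The p-values therefore measure the spread among these 8 samples, and that spread may be technical. RNA came from whole cultures, so fewer cells that express a gene and less RNA per cell cannot be told apart.

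The arrays had medians of 233 to 286 as deposited and were quantile normalized, and every intensity below is on that normalized scale. Differences are siESRP minus siGFP on the log2(intensity + 1) scale, with the standard error (SE) from limma. A row passed when its Benjamini-Hochberg adjusted p over all 18495 rows was under 0.05. The control arrays read 2439 ± 169 for ESRP1 and the siESRP arrays 582 ± 66.9 (SD, n = 4 each), which follows the labels. The row shared by ESRP2 and NFATC3 went from 531 ± 33.4 to 148 ± 27.4. Epithelial markers were bright in the control arrays (EPCAM 3386, KRT8 6690, KRT18 4917). Their list of 10 genes, which includes ESRP1, summed to between 29159 and 29836 in siGFP and between 31095 and 31994 in siESRP, and 5 of the 10 passed: CDH1, KRT18, KRT19 and ITGA6 rose and ESRP1 fell. In contrast to the bright epithelial markers, PTPRC of leukocytes (10.7), PECAM1 of endothelium (15.7) and LUM of fibroblasts (9.06) were near background. These are single members of their lists, which also hold brighter genes. Summed over its 9 measured genes, the fibroblast marker list ran from 853 to 924 in siGFP and from 1393 to 1525 in siESRP, and 3 of the 9 passed: FAP went from 200 to 821 and VIM from 159 to 193, while COL1A1 went from 252 to 182. The sums reached at most 990 in siGFP and 1177 in siESRP over 8 leukocyte markers, and 613 and 681 over 10 endothelial markers. Of each list 2 passed, 1 as higher and 1 as lower in siESRP. Log2 differences ran from −0.91 to 1.14 over the leukocyte list and from −0.44 to 1.4 over the endothelial list. The part of these markers in the results below was not tested.

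Over all rows, 20.2% passed, 10.9% as higher and 9.31% as lower in siESRP. Of the 18 cytosolic enzymes 6 passed (33.3%): YARS1, FARSA, SARS1, GARS1 and AARS1 fell and QARS1 rose. Of the 12 mitochondrial enzymes 3 passed: WARS2 and NARS2 fell and RARS2 rose. AIMP1 did not pass. The cytosolic rows were bright, from the 75.6th (VARS1) to the 99.0th percentile (IARS1 and NARS1) of mean intensity among all rows. Without the dimmest 25% of rows a larger share of rows passed, 3966 of 13871. The enzymes that passed were then 6 of 18 cytosolic and 2 of 12 mitochondrial. The median log2 difference was −0.15 over the cytosolic enzymes and 0.00 over the mitochondrial enzymes, beside −0.02 over all rows. On the deposited scale these medians were −0.16 and −0.01, beside −0.10 over all rows. With median scaling they were −0.18 and −0.03, beside −0.11, so the cytosolic median lay closer to that of all rows in both settings. A negative difference was seen in 15 of 18 cytosolic and in 6 of 12 mitochondrial enzymes, and in 53.0% of all rows. Without normalization between arrays only 1 enzyme of each compartment passed, YARS1 and WARS2, and the rise of RARS2 did not pass with median scaling (adjusted p = 0.175).

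**Figure D1:**
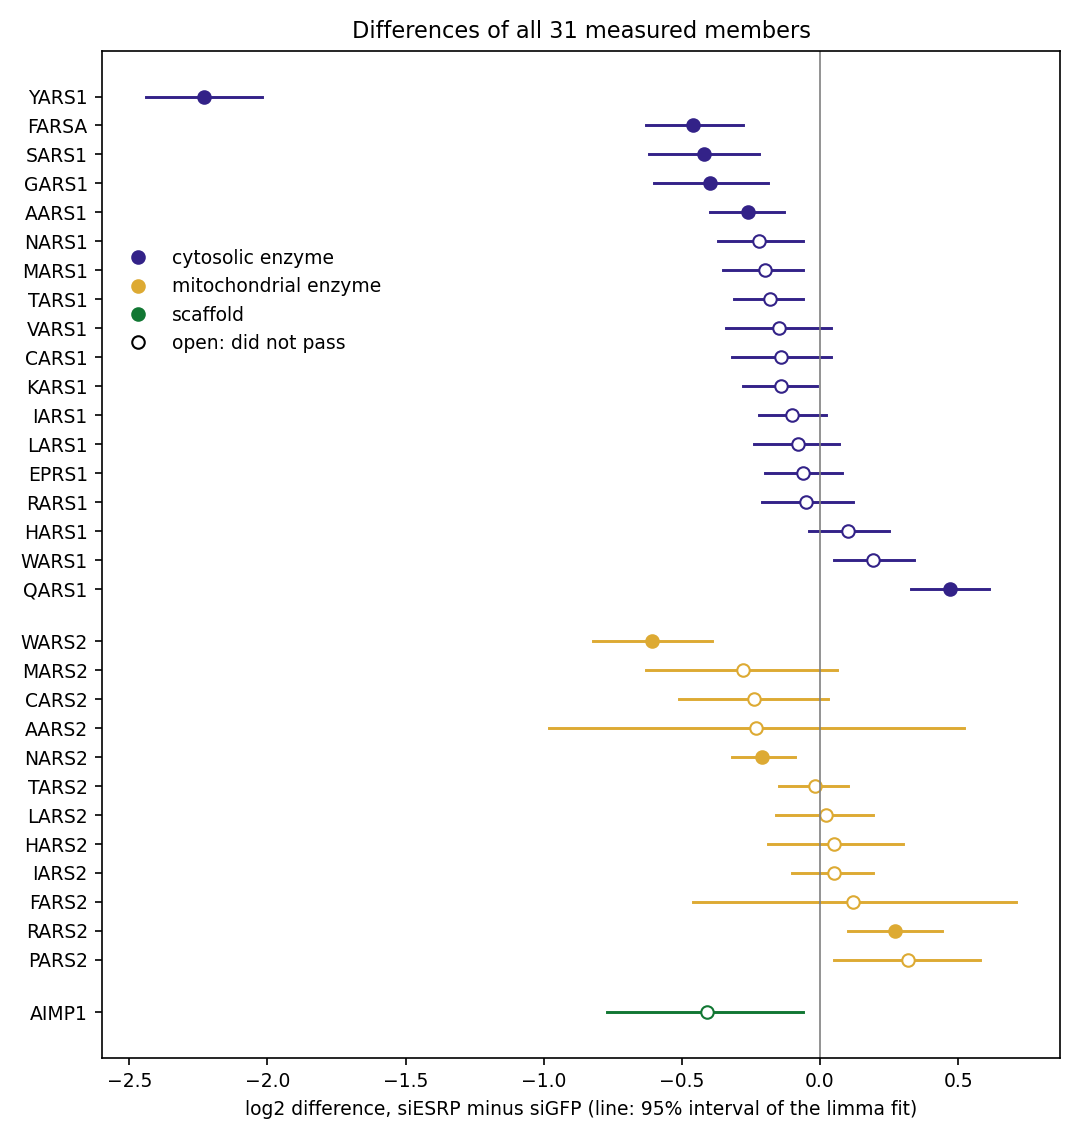
Log2 difference between siESRP and siGFP (horizontal axis) for each of the 31 measured genes, grouped by compartment, with the 95% interval of the limma fit. Filled points passed the test; YARS1 stands at −2.23, and every other gene lies between −0.61 and 0.47.

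YARS1, the cytosolic tyrosyl-tRNA synthetase, had the largest change of any member. Its intensities in siGFP replicates 1 to 4 were 1979, 2363, 2305 and 2178, and in siESRP replicates 1 to 4 they were 455, 453, 430 and 541. The lowest control array was thus far above the highest siESRP array. The mean fell from 2206 ± 170 to 470 ± 48.8 (SD, n = 4 each), a 4.69-fold fall (log2 difference −2.23 ± 0.09 SE, limma adjusted p = 5.01e-05). The difference lay between −2.30 and −2.19 when any 1 array was left out. A further row, annotated jointly to YARS1 and its genome neighbour S100PBP, read 269 ± 17.2 in siGFP and 232 ± 37.7 in siESRP and did not pass (adjusted p = 0.246). Which gene that joint row reports cannot be told apart.

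The other 4 cytosolic enzymes that fell changed by 1.20-fold to 1.37-fold. FARSA encodes the catalytic alpha subunit of cytosolic phenylalanyl-tRNA synthetase. It read 2301, 2102, 2047 and 2195 in siGFP and 1516, 1746, 1424 and 1616 in siESRP, with no overlap, and fell 1.37-fold (log2 difference −0.46 ± 0.07 SE; adjusted p = 0.00589 by limma). SARS1, which charges serine tRNA and also supplies the serylated tRNA on which selenocysteine is made, read 3706, 3146, 3709 and 3030 in siGFP. In siESRP it read 2694, 2381, 2499 and 2562, all below the controls, a 1.34-fold fall (log2 difference −0.42 ± 0.08 SE, limma adjusted p = 0.0137).

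GARS1, the glycyl-tRNA synthetase of both compartments, read 1218, 1430, 1194 and 1189 in siGFP and 868, 910, 1017 and 1025 in siESRP. Its highest control array stood apart from the other 3, and the groups did not overlap. The fall was 1.32-fold (log2 difference −0.40 ± 0.09 SE, limma adjusted p = 0.0179). AARS1, which charges alanine tRNA, read 3207, 2826, 2874 and 2850 in siGFP and 2490, 2577, 2386 and 2343 in siESRP. All siESRP arrays were below all controls, and the fall was 1.20-fold (log2 difference −0.26 ± 0.06 SE, limma adjusted p = 0.0183). The AARS1 call ended without siESRP replicate 4 (adjusted p = 0.0511) and with median scaling (adjusted p = 0.0660), as did the SARS1 call with median scaling (adjusted p = 0.0640).

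QARS1 was the only cytosolic enzyme that rose with the test passed. It encodes glutaminyl-tRNA synthetase, a member of the multisynthetase complex. Its intensities were 1380, 1521, 1474 and 1366 in siGFP and 1927, 1879, 2118 and 2042 in siESRP, so each siESRP array exceeded each control. The mean rose 1.39-fold, from 1435 ± 74.5 to 1991 ± 108 (SD, n = 4 each; log2 difference 0.47 ± 0.06 SE, limma adjusted p = 0.00202), and the call held with each array left out (adjusted p of 0.00487 to 0.00881).

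**Figure D2:**
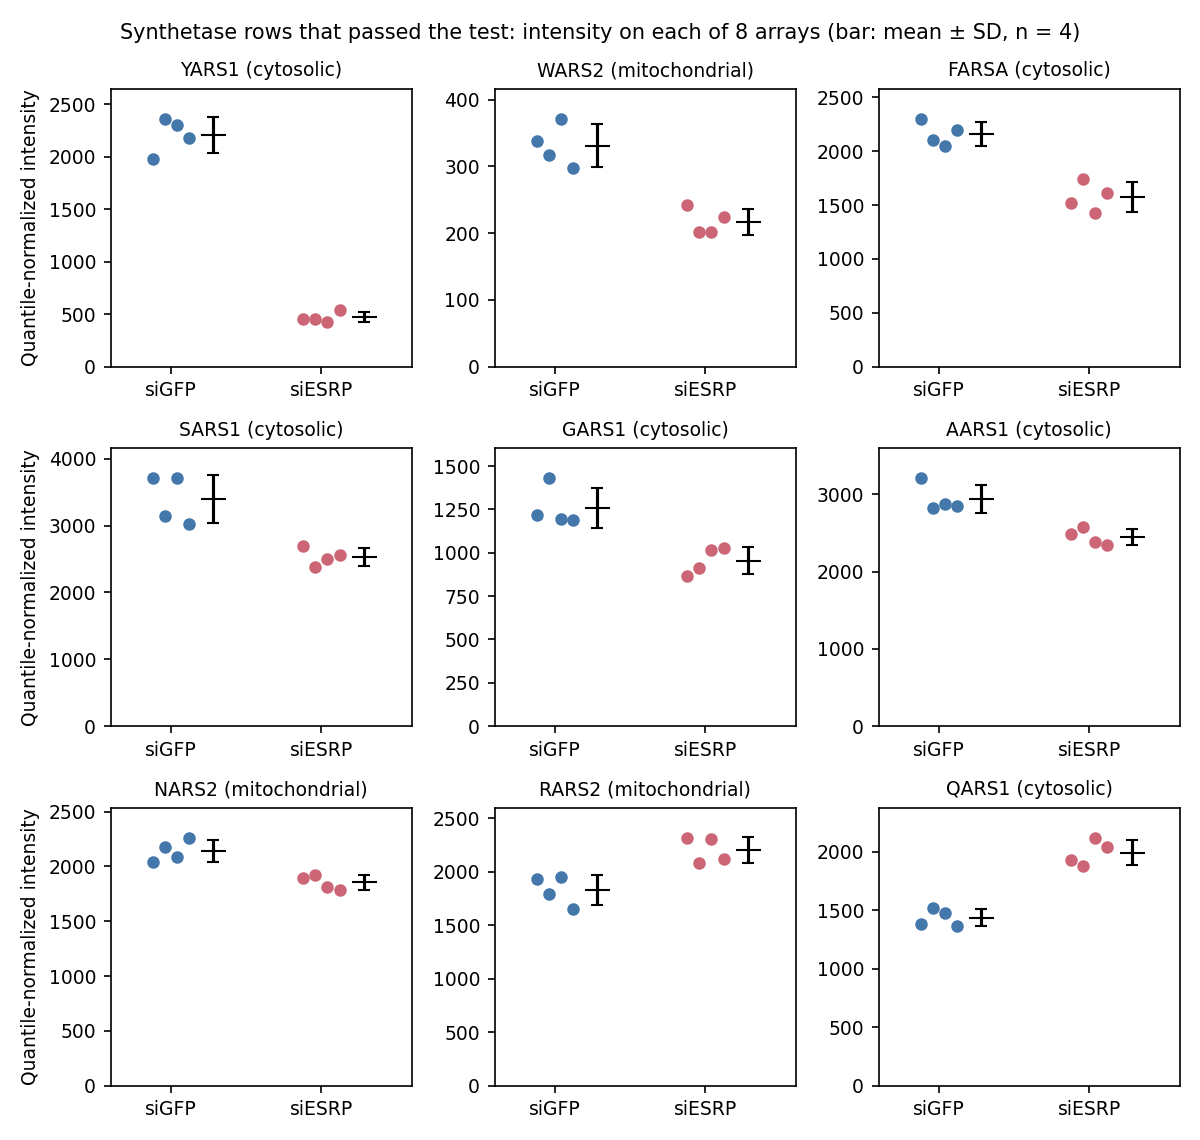
Quantile-normalized intensity (vertical axes from 0) on the 4 siGFP and 4 siESRP arrays for the 9 enzymes that passed, in order of their difference; points are arrays, bars the mean ± SD. In each panel the groups are separate, widely for YARS1 (430 to 541 against 1979 to 2363) and narrowly for RARS2.

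The other 12 cytosolic enzymes did not pass, and their differences ran from −0.22 to 0.19. NARS1, MARS1, TARS1 and KARS1 nonetheless had siESRP arrays that all lay below the controls, with differences of −0.22, −0.20, −0.18 and −0.14 (adjusted p = 0.0563, 0.0541, 0.0531 and 0.129). Counting those that passed, 10 of 18 cytosolic enzymes had groups that did not overlap, beside 24.7% of all rows. Of the 12 measured mitochondrial enzymes, 3 had groups that did not overlap. The 24.7% includes dim rows, and the share over rows as bright as the cytosolic ones was not computed. With a pseudocount of 16 in place of 1, NARS1, MARS1 and TARS1 also passed, which made 8 lower and 1 higher.

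For the other cytosolic enzymes that did not pass, the intervals give the range of differences left. Those of CARS1 and VARS1 include a fall as large as that of AARS1 (−0.26). EPRS1, the fused glutamyl- and prolyl-tRNA synthetase, differed by −0.06 (95% interval −0.20 to 0.08). The leucine enzyme LARS1 differed by −0.08 (−0.24 to 0.07), the arginine enzyme RARS1 by −0.05 (−0.21 to 0.12) and the isoleucine enzyme IARS1 by −0.10 (−0.22 to 0.02). CARS1 differed by −0.14 (−0.32 to 0.04), VARS1 by −0.15 (−0.34 to 0.04) and HARS1 by 0.10 (−0.04 to 0.25). WARS1, the tryptophan enzyme, which interferons are known to induce, read 2722 ± 115 in siGFP and 3114 ± 218 in siESRP (SD, n = 4 each) and did not pass (difference 0.19, adjusted p = 0.0716), although it did without siESRP replicate 3 (adjusted p = 0.0372).

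Synthetases fall into class I and class II, which differ in the fold of the catalytic domain. EPRS1, whose glutamyl domain is class I and prolyl domain class II, was counted in class I alone. Of 10 measured class I enzymes, 1 fell (YARS1) and 1 rose (QARS1), with a median difference of −0.09. Of 8 measured class II enzymes, 4 fell (FARSA, SARS1, GARS1 and AARS1) and 0 rose, with a median of −0.24. Of 7 enzymes of the multisynthetase complex, QARS1 rose and 0 fell, with a median of −0.08, while 5 of the 11 outside it fell, with a median of −0.22. Of all rows 20.2% passed in either direction. The share that passed in class I was practically the same as this, and the share in the complex lay below it. The shares in class II and outside the complex lay above that of all rows. Each subset holds only 7 to 11 genes, and whether these subsets differ from each other or from all rows was not tested. Of the class II enzymes 0 passed without normalization between arrays and 2 under median scaling, with medians of −0.21 and −0.23. The median of all rows was then −0.10 and −0.11, in place of −0.02, so the class II median lay closer to that of all rows. Outside the complex the counts were then 1 and 3.

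AIMP1, the complex's scaffold that is also secreted as a cytokine precursor, read 1854, 1242, 1671 and 1371 in siGFP. In siESRP it read 1297, 1066, 1220 and 990, so that siESRP replicate 1 overlapped the lowest control. The means were 1534 ± 279 and 1143 ± 140 (SD, n = 4 each). The difference of −0.41 ± 0.15 SE did not pass (limma adjusted p = 0.0996; 95% interval −0.77 to −0.06).

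Among mitochondrial enzymes, WARS2 changed most. It charges mitochondrial tryptophan tRNA. Its intensities were 339, 317, 371 and 298 in siGFP and 242, 202, 201 and 224 in siESRP, with all siESRP arrays below the controls. The mean fell 1.52-fold, from 331 ± 31.6 to 217 ± 19.6 (SD, n = 4 each; log2 difference −0.61 ± 0.09 SE, limma adjusted p = 0.00453). The call held in each setting tried, with adjusted p from 0.00175 to 0.0492.

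NARS2 and RARS2, for mitochondrial asparagine and arginine tRNA, moved less and in opposite directions. NARS2 read 2043, 2175, 2082 and 2262 in siGFP and 1897, 1926, 1817 and 1784 in siESRP, a 1.15-fold fall with no overlap (log2 difference −0.21 ± 0.05 SE, limma adjusted p = 0.0256). RARS2 read 1929, 1795, 1949 and 1648 in siGFP and 2318, 2082, 2306 and 2118 in siESRP, a 1.21-fold rise, also with no overlap (log2 difference 0.27 ± 0.07 SE, limma adjusted p = 0.0353). Both calls ended without siGFP replicate 2 or 4, or without siESRP replicate 1, 3 or 4, with adjusted p from 0.0534 to 0.0942 in these fits. WARS2 was then the only mitochondrial enzyme called.

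The other 9 mitochondrial enzymes did not pass. PARS2, the proline enzyme, had means of 677 in siGFP and 838 in siESRP (difference 0.32 ± 0.11 SE, adjusted p = 0.0987), and it passed without siGFP replicate 3 (adjusted p = 0.0309). IARS2, LARS2, HARS2 and TARS2 differed by 0.05, 0.02, 0.05 and −0.02, and their intervals together spanned −0.19 to 0.30. MARS2 and CARS2 differed by −0.28 and −0.24. AARS2 was the dimmest member, at 114 ± 40.3 and 94.7 ± 26.7, and its interval of −0.98 to 0.52 was the widest. FARS2, with a control SD of 166 on a mean of 683, had an interval of −0.46 to 0.71.

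For 11 amino acids both the cytosolic and the mitochondrial enzyme were measured, so the log2 ratio of the 2 rows could be followed within each array. The ratio itself depends on the probes, and only its change is read here. For tryptophan it rose by 0.80 ± 0.13 SE, as WARS1 differed by 0.19 and WARS2 by −0.61; it ran from 2.82 to 3.28 over the siGFP arrays and from 3.66 to 4.06 over the siESRP arrays. For arginine the ratio fell by 0.32 ± 0.02 SE, from 0.53 to 0.60 in siGFP to 0.21 to 0.30 in siESRP, with RARS1 at −0.05 and RARS2 at 0.27. For threonine it fell by 0.16 ± 0.05 SE without overlap. An exact permutation test (two-sided, unadjusted over the 11 pairs) gave p = 0.0286 for each of these 3 changes, the smallest that 4 against 4 arrays can give. Any ratio whose groups do not overlap has this p, so it adds nothing to the separation itself. Of all single rows, 24.7% had groups that did not overlap, and the share over other pairs of rows was not computed. For asparagine both enzymes had nearly the same difference (−0.22 and −0.21), and the ratio changed by −0.01 ± 0.10 SE. In the other 7 pairs the groups overlapped.

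**Figure D3:**
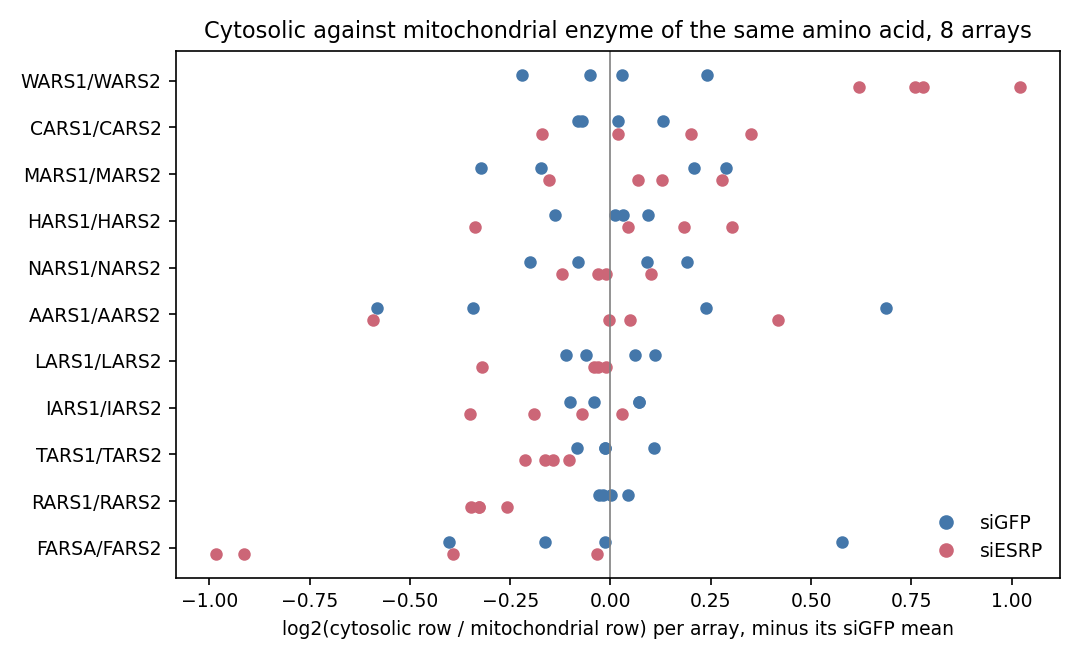
Change of the log2 ratio of the cytosolic to the mitochondrial row of an amino acid on each array, relative to its siGFP mean (horizontal axis), for 11 pairs. The siGFP and siESRP points separate for WARS1/WARS2, RARS1/RARS2 and TARS1/TARS2 and overlap in the remaining pairs.

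ATF4 is known to induce 12 of the cytosolic enzymes, by a list drawn from general knowledge. All 12 were measured: 4 fell (YARS1, SARS1, GARS1 and AARS1), 0 rose, and the median difference was −0.19; 1 fell without normalization between arrays and 2 under median scaling. Of the 6 other measured cytosolic enzymes FARSA fell and QARS1 rose, with a median of −0.10. In both sets 33.3% passed, beside 20.2% of all rows. Of 32 measured genes of the ATF4 amino acid response other than synthetases, 18 fell and 4 rose, with a median of −0.38 (11 fell and 1 rose on the deposited scale, with a median of −0.40 beside −0.10 for all rows). The share of this response list that passed was 68.8%. The 4 rises became 2 without siGFP replicate 1, 3 or 4 or siESRP replicate 1, 2 or 4. STC2, a secreted glycoprotein, fell 2.16-fold, JDP2, a transcription factor, 1.82-fold, ASNS, the asparagine synthetase, 1.96-fold, and SLC7A5, a leucine transporter, 1.53-fold (adjusted p of at most 0.000532). The nuclear exporter of tRNA, XPOT, fell 1.30-fold. ATF4 itself (−0.21) did not pass, and SESN2 and SLC38A2 rose 1.32-fold each.

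Upstream of ATF4, of 13 measured genes of the eIF2 and GCN2 pathway EIF2B2 (1.24-fold) and EIF2AK1 (1.20-fold) rose and EIF2B4 (1.27-fold) fell. That is 23.1%, near the 20.2% of all rows, and 0 of the 13 passed on the deposited scale or without siESRP replicate 1. GCN2 itself, encoded by EIF2AK4, differed by −0.22 and did not pass. Downstream of charging, 0 of 6 measured cytosolic elongation and release genes passed, out of 10 listed. EEF2K was 1.33-fold higher in siESRP without overlap but did not pass (limma adjusted p = 0.0661). With the dimmest 25% of rows left out, or with a trended and robust eBayes, 1 of the 6 passed as higher. Of 12 mitochondrial translation factors 2 rose and 2 fell (1 and 0 on the deposited scale): MTFMT, which formylates the initiator methionyl-tRNA, rose 1.31-fold and the elongation factor TUFM 1.20-fold, while the recycling factor MRRF fell 1.24-fold. QRSL1, a subunit of the amidotransferase that makes mitochondrial glutaminyl-tRNA, fell 1.25-fold. With both directions counted, 33.3% of these mitochondrial factors passed, beside 20.2% of all rows. Without siESRP replicate 1, 0 of the 12 were called lower, and without siGFP replicate 1, 2, 3 or 4, 1 was.

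Among 44 measured genes that process or modify tRNA, 5 rose and 10 fell (3 and 3 on the deposited scale). That is 34.1%, beside 20.2% of all rows. The median difference was −0.17, and on the deposited scale −0.16 beside −0.10 for all rows. The number that fell was 6 without siGFP replicate 2 and 5 without siGFP replicate 3. The 10 include TSEN34, whose intensities were near 0 in siESRP. CLP1, an RNA kinase linked to tRNA splicing, rose 1.90-fold from 490 ± 55.4 to 928 ± 51.4 (SD, n = 4 each). POP1, a subunit of RNase P, rose 1.68-fold. TSEN15, of the tRNA splicing endonuclease, fell 1.49-fold, and TRMU, which thiolates mitochondrial tRNA, fell 1.82-fold from 854 ± 28.1 to 471 ± 61.5.

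**Figure D4:**
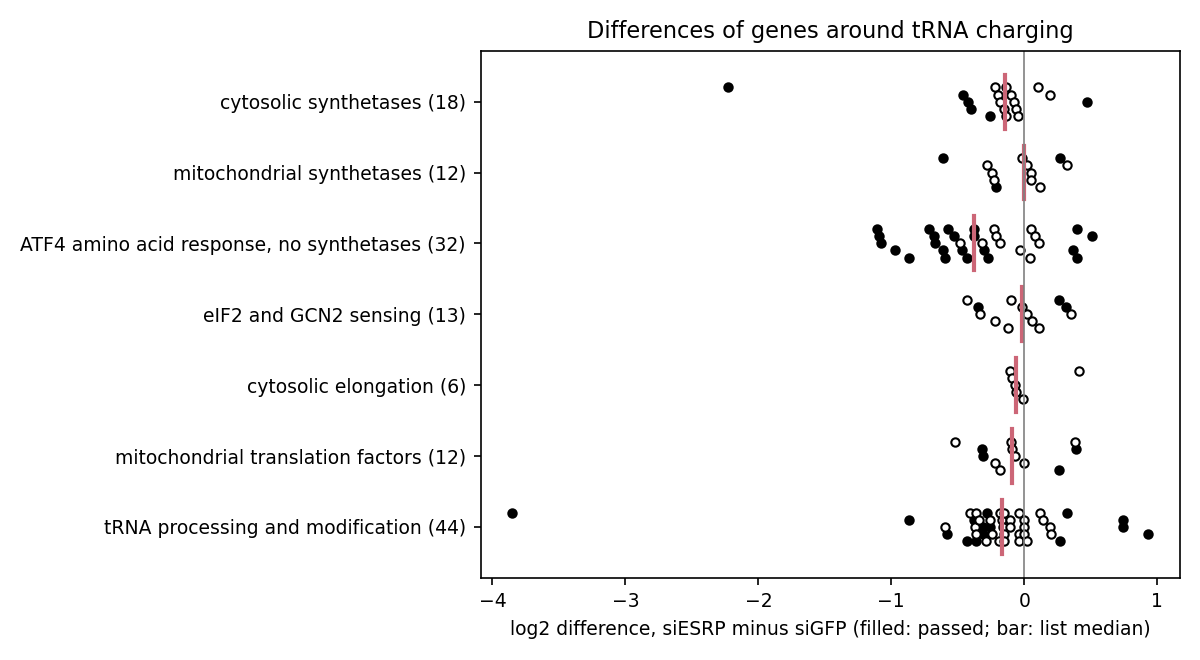
Log2 difference between siESRP and siGFP (horizontal axis) of each measured gene of 7 lists around tRNA charging, with the number measured in parentheses; filled points passed, and the bar is the list median. The ATF4 amino acid response list has the lowest median, −0.38, and the point at −3.85 is TSEN34, whose intensities were near 0.

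Promoter sequence was read for the 33 members that the RefSeq promoter table of GRCh38.p14 holds, taking the 250 bases before the start of each gene. YARS1, LARS1, VARS1, AARS2 and VARS2 have no entry there. The composite element bound by ATF4 with C/EBP factors was searched as TGATGNAA on both strands. It was found in 2 of 16 cytosolic, 1 of 14 mitochondrial and 0 of 3 scaffold promoters, and in 3.14% of all 35116 promoters. The cytosolic matches were in AARS1, which fell, and in IARS1, which did not pass, and both hold the same 8 letters. They are shown 5′ to 3′ on the gene's strand (the minus strand for both genes), with the match in capitals. They were chosen because they are the only element matches among measured members with an entry. AARS1 lies at chr16:70289675-70289704, with the match starting 187 bases before the start, and IARS1 at chr9:92293698-92293721, starting 13 bases before it.
AARS1: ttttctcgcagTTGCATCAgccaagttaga
IARS1: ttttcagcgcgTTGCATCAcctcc

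Some members start back to back with another gene, so that a single short stretch lies between both starts. HARS1 and HARS2, the cytosolic and mitochondrial histidine enzymes, are such a pair, with 84 bases between them (chr5:140691371-140691454), and neither passed (differences of 0.10 and 0.05). RARS2 and ORC3, of the origin recognition complex, have 147 bases between them (chr6:87589988-87590134). RARS2 rose 1.21-fold, while ORC3 read 1366 ± 170 and 1375 ± 83.5 (SD, n = 4 each; difference 0.02, adjusted p = 0.951); whether these differences themselves differ was not tested. KARS1 and TERF2IP, a telomere protein, have 107 bases between them (chr16:75647666-75647772), and neither passed (−0.14 and −0.07). These stretches are shown because they can serve both genes, on the minus strand, which is that of HARS1, RARS2 and KARS1. Capitals mark exact matches to CCGGAAG or its reverse complement, a longer form of the GGAA core that ETS-family factors bind. The RARS2 stretch holds no such match, but GGAA and its reverse complement occur there unmarked, as in ccggaac.
HARS1-HARS2: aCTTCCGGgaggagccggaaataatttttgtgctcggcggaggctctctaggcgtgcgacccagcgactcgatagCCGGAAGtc
RARS2-ORC3: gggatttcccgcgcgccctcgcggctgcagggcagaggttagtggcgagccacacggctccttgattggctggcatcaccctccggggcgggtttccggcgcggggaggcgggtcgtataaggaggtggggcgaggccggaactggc
KARS1-TERF2IP: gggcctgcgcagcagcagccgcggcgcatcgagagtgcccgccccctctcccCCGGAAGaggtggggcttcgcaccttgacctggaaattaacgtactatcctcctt

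The searched CCGGAAG was chosen after the HARS1 and HARS2 sequence had been read, so its counts are a description only. Searched on both strands, it was in 7 of 16 cytosolic promoters (43.8%; CARS1, HARS1, KARS1, NARS1, RARS1, SARS1 and WARS1) and in 6 of 14 mitochondrial ones (42.9%; EARS2, HARS2, MARS2, PARS2, SARS2 and TARS2), with the windows of HARS1 and HARS2 overlapping. It was in 8.52% of all promoters and in 10.7% of those of protein-coding genes. Among the measured members with an entry, 1 of the 8 that passed held CCGGAAG, SARS1, and so did 10 of the 19 that did not pass. The SARS1 match lies 48 bases before the start on the plus strand (chr1:109213834-109213862). It is shown because it is the only match among the 8 enzymes that changed and have an entry, which leaves out YARS1. The match of TARS2, which did not pass, is shown beside it (chr1:150487234-150487262, plus strand).
SARS1: ccaaccagccgCTTCCGGtcgcggggagg
TARS2: acattttcggtCTTCCGGtcagccggaac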

How the data were processed

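The authors deposited a table of intensity values, 18495 rows by 8 arrays. Its scale is not stated; the values are whole numbers, some below 0, and were treated as linear. Per the labels' protocols, labelling for the Affymetrix exon arrays started from 1 µg of RNA after removal of ribosomal RNA. How background, probe summary and scaling were handled is not given in the sources used here. Between 2.70% and 4.02% of values per array lie below 0.

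Linear values were brought to common quantiles across the 8 arrays and floored at 0. The log2(value + 1) was fitted with limma 3.58.1 in R 4.3.3 (lmFit, eBayes, without covariates); tests were two-sided, and p-values were adjusted by Benjamini-Hochberg across the 18495 rows. The steps were tested on simulated data. Symbols came from GEO's platform annotation, updated through Entrez IDs to RefSeq (GRCh38.p14): 14577 rows have 1 symbol, 2849 several and 1069 none. Only single-symbol rows were used for members. No build is named for the array, so no row has coordinates.

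The members and lists were chosen with earlier results of these data known. Every member was to be accounted for; those that passed received full statistics, and up to 4 called genes with the smallest p were to be named per other list. Further list genes were named after their values were seen. The number of arrays limits the precision. Alternatives covered scaling, a filter on dim rows, pseudocount, variance moderation, replicate block, threshold and leaving out each array.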

Additional observations from a re-analysis of the deposited data

Results flagged for a closer look

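Within each group of 4 arrays, the gap of the highest or lowest array to its nearest neighbour, as a share of the group's range on the log2 scale, was beyond the 95% critical value of Dixon's test for 4 of the 62 sets tested (31 members in each group). Chance gives about 1 in 20, or 3.1. In siGFP, AARS1 had replicate 1 apart and high (ratio 0.867), GARS1 had replicate 2 apart and high (0.871), and KARS1 had replicate 2 apart and high (0.914). In siESRP, HARS2 had replicate 3 apart and high (0.895), at 1480 against 1101 to 1136 on the other arrays. AARS1 and GARS1 were still called without the array that stood apart.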

How the results depend on the processing

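On the deposited scale 1673 rows passed in place of 3729, and 1 cytosolic and 1 mitochondrial enzyme in place of 6 and 3. At adjusted p under 0.01 these counts were 1808, 3 and 1. The numbers did not pair the arrays (correlations of deviations from −0.181 to 0.0531 for same-numbered arrays). With the replicate number as a block 2292 rows passed, with 4 cytosolic enzymes (AARS1 and GARS1 did not pass, adjusted p = 0.0642 and 0.0836), 2 mitochondrial enzymes (NARS2 did not pass, adjusted p = 0.106) and also AIMP1, so 1 scaffold gene; AIMP1 passed with a trended and robust eBayes too (1 scaffold gene). Leaving out 1 array gave 2719 to 3793 rows, 5 to 7 cytosolic enzymes and 1 to 4 mitochondrial ones. Over 15 settings and 31 members, none of the 465 differences changed sign while past its threshold. The filter on dim rows, the trended and robust eBayes, the replicate block and the threshold of 0.01 leave the difference itself unchanged. No sign could change in those settings. Sign changes occurred in 4 members that did not pass: LARS2 with median scaling (−0.0040), and, when 1 array was left out, FARS2 (−0.04 to 0.25), HARS2 (−0.05 to 0.10), LARS2 (−0.03 to 0.07) and TARS2 (−0.06 to 0.01). The cause of these differences between settings was not tested. YARS1 and WARS2 passed in all 15. Averaging the rows of a gene was not run, as each member had 1 row.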

Other observations

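The genes that lie next to the measured synthetase genes in the genome were read from the same fit, taking the nearest protein-coding gene on each side by RefSeq. Of 43 different neighbours with a row of their own, HARS1 and HARS2 among them as each other's neighbour, 10 passed, beside 20.2% of all rows, and of the 11 that adjoin an enzyme that changed, 5 passed. NHSL3, next to YARS1, rose 1.27-fold from 658 ± 77.1 to 830 ± 56.2 (SD, n = 4 each, limma adjusted p = 0.0422), where YARS1 fell. Both neighbours of SARS1 rose while SARS1 fell: ELAPOR1, of endosomes and lysosomes, 1.77-fold from 57.1 ± 6.52 to 102 ± 7.47, and CELSR2, an adhesion receptor of planar polarity, 1.46-fold. CALR, the endoplasmic reticulum chaperone calreticulin, lies on the strand opposite to FARSA and rose 1.24-fold where FARSA fell 1.37-fold. GAB2, a docking protein next to NARS2, fell 2.03-fold, from a mean of 476 to 234 (limma adjusted p = 3.7e-05), where NARS2 fell 1.15-fold. Next to synthetases that did not pass, FECH, the last enzyme of haem synthesis, beside NARS1, rose 1.62-fold, and DDIT3, which encodes the stress factor CHOP, beside MARS1, fell 1.48-fold. AIMP1 starts back to back with TBCK, which differed by −0.24 (95% interval −0.54 to 0.05) and did not pass. These neighbours were named after their values were seen.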
